A study of Oryctolagus cuniculus with 12 samples.

Results

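Conjunctiva of the filtering bleb 3 days after trabeculectomy (TL3d) was compared with unoperated conjunctiva across all genes of the deposited gene table. Trabeculectomy is glaucoma surgery that opens a drainage path under a flap of sclera, and the bleb is the conjunctival blister into which the fluid of the eye then drains. The comparison uses 6 of the series' 12 RNA-seq libraries, 3 labelled TL3d and 3 labelled control, chosen by those labels and not by any measured value. The other libraries came from blebs taken 3 hours (TL3h) or 14 days (TL14d) after surgery, 3 of each. All were from female Japanese white rabbits, about 3 months old per the study's methods, operated on in the right eye, and the controls were conjunctiva of unoperated left eyes. The operated eyes also received mitomycin C, a DNA crosslinking drug given to limit scarring, on sponges under the conjunctival and scleral flaps. Per the study's methods, they also received a conjunctival injection of the glucocorticoid betamethasone and an antibiotic ointment. The effects of surgery, mitomycin C and betamethasone therefore cannot be told apart. The study reused trabeculectomy data analyzed earlier, so its methods for drugs and age may describe other animals. Which control eye belonged to which operated eye, when each control was taken and the hour of collection are not given in the sources used here.

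The conjunctiva is a mucous membrane with a stratified epithelium that holds goblet cells, over a loose stroma of fibroblasts, vessels, nerves and resident immune cells. A wound passes through a phase in which neutrophils and then monocytes enter, overlapping a phase in which epithelial cells and fibroblasts divide and new matrix is laid down. Crosslinks between DNA strands stall replication and activate the transcription factor p53, which switches on genes that hold the cell cycle, repair DNA or start cell death. Samples of a whole tissue mix these cells, so that fewer cells of a type and less RNA per cell cannot be told apart.

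Each of the 6 libraries held between 29517572 and 38591425 estimated counts, and 3 counts corresponded to between 0.0712 and 0.0924 CPM (counts scaled to a common library total), taken here as the floor of a library. Levels are given as CPM, in the order replicate 1, 2 and 3, and changes as the log2 fold change of TL3d over control with its standard error (SE, n = 3 per group), and a rise or fall by a value ± SE is on this log2 scale. A gene was called higher or lower where the q of edgeR's quasi-likelihood test, adjusted by Benjamini-Hochberg over all genes tested, was at most 0.05. Nothing in the labels says that the 3 libraries of a group came from separate cohorts or days, and an exact permutation test of 3 against 3 libraries cannot give a two-sided p under 0.1.

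Control replicate 3 and TL3d replicate 3 stood apart from the other libraries of their groups. Across genes, control replicate 3 correlated with the other controls at Pearson's r of 0.938 and 0.954, against 0.978 between those, and TL3d replicate 3 with the other TL3d libraries at 0.933 and 0.963, against 0.981. Summed over 24 chains, collagen RNA was 13470, 35850 and 73360 CPM in control replicates 1, 2 and 3, and 4937, 15860 and 71760 CPM in the TL3d replicates. Keratin RNA was lowest in the same libraries, with 14920, 11950 and 6897 CPM in control and 23110, 21510 and 9727 CPM at TL3d. In both groups, collagen RNA thus rose and keratin RNA fell from replicate 1 to replicate 3. Whether the make-up of the tissue differed was not tested. Skeletal muscle genes were high in 1 library of each group, at 564.6 CPM in control replicate 2 and 588.5 CPM in TL3d replicate 3, against 40.15 to 217.8 CPM in the other 4. The epithelium was present throughout: 4353, 3193 and 1836 CPM in control and 5977, 4745 and 1885 CPM at TL3d for KRT4, a keratin of mucosal epithelia. The share of counts on the mitochondrial genome was 3.98 to 5.52% in control and 3.5 to 3.87% at TL3d.

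Of 14835 genes tested, 2608 passed the threshold (17.6%), with 1569 higher (10.6%) and 1039 lower (7%) at TL3d. The change was at least 2-fold for 1091 of the higher and 559 of the lower genes, and the median over all genes tested was -0.0018. Calls depended on single libraries. Leaving out each of the 12 libraries in turn, the count ranged from 359 to 3778, and it was 491 without control replicate 1, 370 without control replicate 2, 449 without TL3d replicate 1, 359 without TL3d replicate 2, 2215 without control replicate 3 and 2293 without TL3d replicate 3. In all 12 of these leave-one-out fits, 267 genes were called, 218 higher and 49 lower, and no called gene changed sign in any of them. Genes called in all 12 fits are described here as firm. For other called genes whose values are given, the number of fits in which the gene was called and its highest q are given. In the 44 gene lists described here, 27 had 0 members called lower and 8 had 0 called higher by edgeR. In those lists and directions, 0 to 3 members had an unadjusted p under 0.05, and DESeq2 called 0 to 3.

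**Figure D1:**
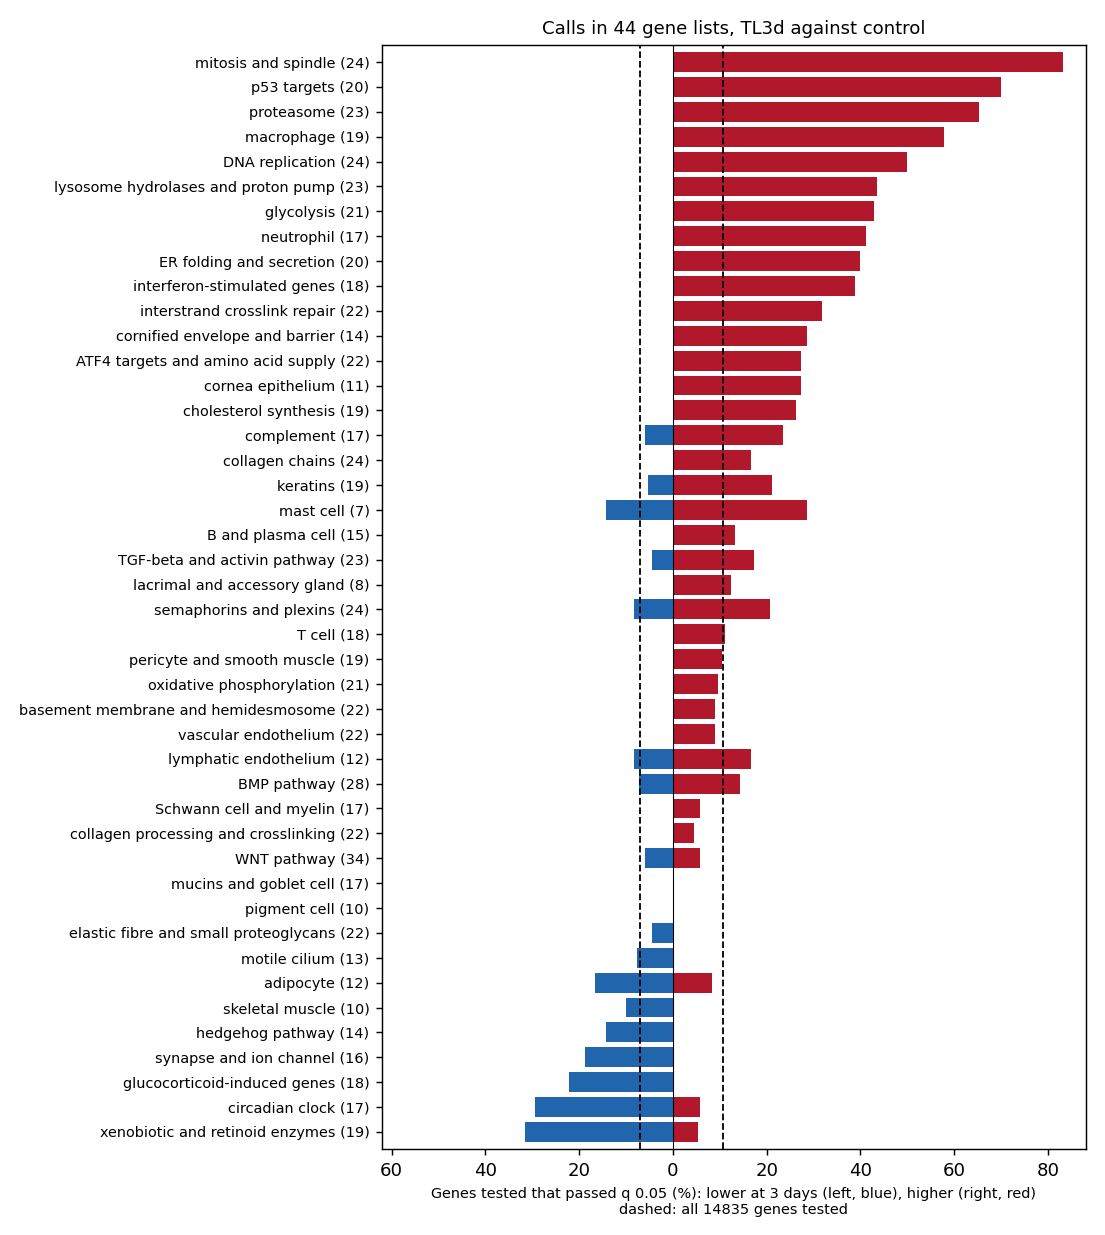
Percent of genes tested that were called higher (right, red) or lower (left, blue) at TL3d against control in each of 44 gene lists, with the number of genes tested in parentheses and dashed lines at the 10.6% and 7% of all 14835 genes. Mitosis, p53 target, proteasome and macrophage genes lie at the top, and clock genes and xenobiotic enzymes at the bottom.

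Most cell division genes were higher. Of 24 mitosis and spindle genes, 20 were higher and 0 lower (83.3% higher against 10.6% of all genes tested), with a median log2 fold change of 1.41. In all 24, every TL3d library lay above every control library, which held for 23.8% of all genes tested. CDK1, the kinase that drives entry into mitosis (chromosome 18, 25387628 to 25403308 of the OryCun2.0 build), was at 10.9, 15.2 and 7.6 CPM in control and 57.1, 41.8 and 46.8 CPM at TL3d. Its groups did not overlap, at a log2 fold change of 2.12 ± 0.36, q = 0.011. The firm members also included AURKA and TTK, kinases of the spindle and its checkpoint, at 1.89 ± 0.27 and 1.93 ± 0.29, and BUB1, another checkpoint kinase, at 1.72 ± 0.3. UBE2C, which marks cyclins for destruction at the end of mitosis, rose by 1.96 ± 0.37 and was called in 10 fits, highest q 0.0525 without control replicate 1. MKI67, the common proliferation marker, did not pass, with 45.3, 70 and 28.2 CPM in control and 75.2, 71.8 and 90.6 CPM at TL3d and log2 fold change of 0.73 ± 0.39, q = 0.204. CENPF, ASPM and BIRC5 were the other 3 members that did not pass. Without control replicate 1, control replicate 2, TL3d replicate 1 and TL3d replicate 2, 11, 17, 13 and 11 members were called, and 16 to 21 in the other 8 fits.

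The same direction held for centromere proteins and kinesins, families of the division machinery that were found by symbol alone. It was weaker in 2 others. Of 35 genes with cell division cycle symbols, 9 were higher and 0 lower (25.7% higher). Of 10 minichromosome maintenance genes, 1 was higher and 0 lower (10%, near the 10.6% of all genes). Of 19 centromere proteins, 10 were higher (52.6%), and CENPP, a subunit of the constitutive centromere complex, was at 0.522, 0.65 and 0.326 CPM in control and 3.15, 2.49 and 2.82 CPM at TL3d, with a log2 fold change of 2.49 ± 0.44, q = 0.0114. Of 32 kinesins, the motors that move along microtubules, 12 were higher and 2 lower (37.5% and 6.25%). KIF24 was firm among them, at 3.09, 3.13 and 2.26 CPM in control and 17.1, 14.6 and 11.3 CPM at TL3d (2.34 ± 0.36). FOXM1, the transcription factor of many mitotic genes, rose by 1.55 ± 0.21 in all 12 fits, from 6.04 ± 1.41 to 17.7 ± 1.48 CPM (mean ± SD, n = 3). RBL2, the pocket protein p130 that holds cell cycle genes silent in resting cells, fell in all 12 fits, with 143, 138 and 131 CPM in control and 84.7, 87.6 and 97.7 CPM at TL3d. The change in RBL2 was -0.61 ± 0.1, q = 0.01. CENPP, KIF24, FOXM1 and RBL2 were picked after their values were seen. Centromere calls numbered 5, 6, 5 and 4 without control 1, control 2, TL3d 1 and TL3d 2, and kinesin calls 2, 7, 4 and 3.

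DNA replication genes moved less evenly. Of 24 tested, 12 were higher and 0 lower (50% higher, against 10.6% of all genes). The median was 1.05, and all 24 fold changes were positive. RRM2, the regulatory subunit of the enzyme that makes deoxynucleotides, was at 30.8, 28.6 and 14.7 CPM in control and 224, 127 and 109 CPM at TL3d, with a log2 fold change of 2.63 ± 0.45, q = 0.0111. CCNE1 and CCNE2, the cyclins of the step from G1 into S phase, rose by 2.57 ± 0.36 and 2.6 ± 0.38. CDC6, which loads the replicative helicase, rose by 2.15 ± 0.32, and PCNA, the sliding clamp of DNA polymerases, by 1.66 ± 0.21, from 55 ± 11.3 to 174 ± 26.4 CPM (mean ± SD, n = 3). These 5 and RRM1 were firm. The 6 helicase subunits MCM2 to MCM7 did not pass, with fold changes of 0.62 to 0.85, nor did POLA1 of the primase complex, at 33.6, 33.4 and 28.2 CPM in control and 34.6, 32.9 and 33.9 CPM at TL3d. The change in POLA1 was 0.09 ± 0.14, q = 0.672. The count of members called was 12, 6, 6 and 6 without control 1, control 2, TL3d 1 and TL3d 2, and 8 to 12 in the other 8 fits.

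Most targets of p53 were higher. Of 20 tested, 14 were higher and 0 lower (70%), with a median of 1.29. CDKN1A encodes p21, the inhibitor that stops the cell cycle (chromosome 12, 26614081 to 26621175 of the OryCun2.0 build), and was at 135, 104 and 52.6 CPM in control and 1331, 1159 and 885 CPM at TL3d. All 3 TL3d libraries lay far above the controls, at a log2 fold change of 3.53 ± 0.62, q = 0.0114, and the gene was firm, with highest q 0.0496 without control replicate 2. SESN2, a sensor of stress that restrains growth signalling, was at 23.8, 17.3 and 13.2 CPM in control and 116, 105 and 74 CPM at TL3d (log2 fold change of 2.44 ± 0.35, q = 0.00873), also firm. BAX, which opens mitochondria in cell death, and CCNG1, a cyclin that p53 induces, were firm at 1.57 ± 0.19 and 1.08 ± 0.17, and so was PHLDA3, a repressor of the kinase AKT, at 1.32 ± 0.22. MDM2, the ubiquitin ligase that degrades p53, rose by 2.2 ± 0.41 and was called in 11 fits, highest q 0.0552 without control replicate 2. The death receptor FAS rose by 2.43 ± 0.58 (8 fits, highest q 0.0828 without control replicate 1) and the polo-like kinase PLK2 by 2.47 ± 0.7 (3 fits, highest q 0.12 without control replicate 2). PERP, a p53 target that is also a desmosome protein of stratified epithelia, did not pass, with 1619, 1233 and 602 CPM in control and 1189, 1093 and 584 CPM at TL3d. The change in PERP was -0.27 ± 0.49, q = 0.726. The count of members called was 10, 5, 9 and 6 without control 1, control 2, TL3d 1 and TL3d 2, and 10 to 15 in the other 8 fits. Reads of CCNG1 and MDM2 gave fractional counts in 100% and 75% of libraries, so their levels rest on the division of reads shared with other loci.

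Crosslink repair genes moved in part. Of 22 genes of the repair of crosslinks between DNA strands, 7 were higher and 0 lower, with a median of 0.56. The share higher was 31.8%, against 10.6% of all genes. BRCA1 and BRIP1, partners in homologous recombination, rose by 1.94 ± 0.4 (9 fits, highest q 0.0609 without control replicate 2) and 1.43 ± 0.34 (8 fits, highest q 0.0723 without TL3d replicate 1). FANCI, part of the clamp that marks a crosslink, rose by 1.55 ± 0.37 (9 fits, highest q 0.0826 without TL3d replicate 1), with all its counts fractional. UBE2T, the ubiquitin-conjugating enzyme of this pathway, lies outside the list and was noted after its values were seen. It was at 1.4, 1.75 and 1.13 CPM in control and 9.14, 8.28 and 7.14 CPM at TL3d (log2 fold change of 2.52 ± 0.34, q = 0.00794) and was firm. BRCA1 and BRIP1 are also made in S phase of dividing cells, and how much of their change went with division was not tested. The count of members called was 4, 1, 1 and 2 without control 1, control 2, TL3d 1 and TL3d 2, and 5 to 8 in the other 8 fits.

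**Figure D2:**
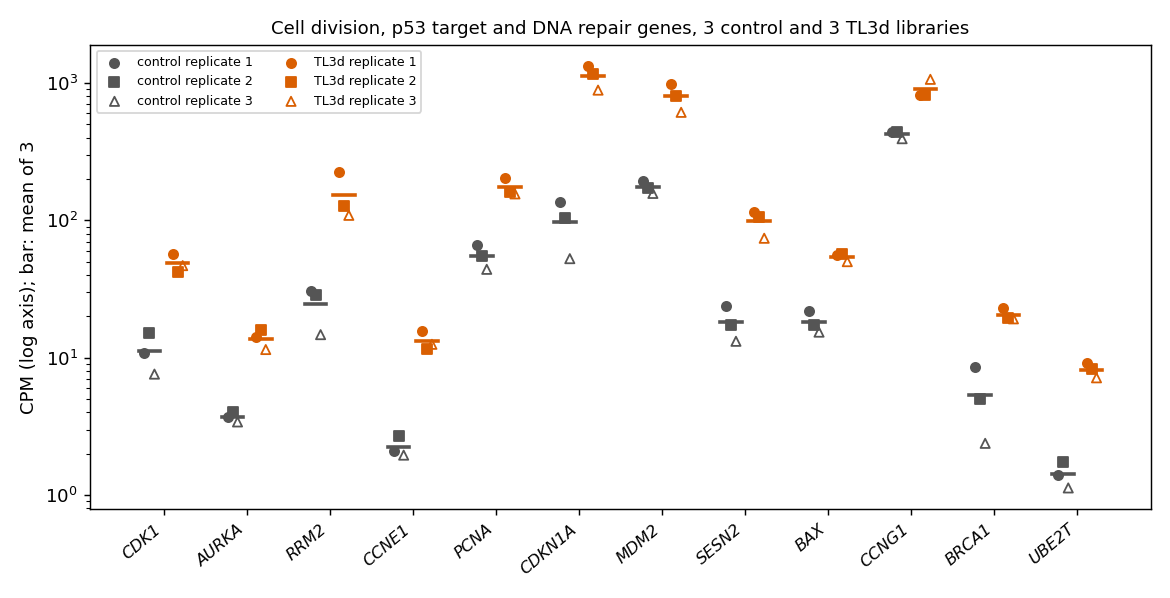
CPM on a log axis of 12 genes of cell division, DNA replication, p53 response and DNA repair in the 3 control (grey) and 3 TL3d (orange) libraries, with bars at the group means. In each gene the TL3d libraries lie above the control libraries, and CDKN1A spans 52.6 to 135 CPM in control and 885 to 1331 CPM at TL3d.

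Most macrophage markers were higher at TL3d. Of 19 tested, 11 were higher and 0 lower (57.9% higher, against 10.6% of all genes), with a median of 2.98. CD68, a lysosomal glycoprotein of macrophages, lay higher in every TL3d library than in any control, from 26.7 ± 8.59 to 184 ± 13.9 CPM (mean ± SD, n = 3), by 2.78 ± 0.43, q = 0.00971. CCR2, the receptor that draws monocytes from blood, was at 2.28, 3.1 and 3.46 CPM in control and 34.3, 58.3 and 43.8 CPM at TL3d. The change in CCR2 was 3.95 ± 0.49, q = 0.00695. Both were firm. MSR1, a scavenger receptor, was at 0.997, 1.03 and 2.61 CPM in control and 42.4, 70.7 and 64.5 CPM at TL3d, with a log2 fold change of 5.26 ± 1.25, q = 0.0228 (8 fits, highest q 0.0853 without control replicate 1). TREM2, a lipid receptor of macrophages listed under a locus name, rose by 3.77 ± 0.69 (11 fits, highest q 0.0509 without control replicate 2). CD163 and MRC1, receptors of resident and repair-type macrophages, did not pass (q = 0.0636 and 0.118). CD163 was at 7.45, 19.3 and 157 CPM in control and 453, 328 and 673 CPM at TL3d, and MRC1 at 14.5, 39.9 and 202 CPM in control and 203, 418 and 504 CPM at TL3d. Control replicate 3 was far above the other controls for both genes. The summed level of the list was 1329, 1027 and 1548 CPM in control and 2826, 3512 and 4083 CPM at TL3d. The count of members called was 4, 2, 4 and 4 without control 1, control 2, TL3d 1 and TL3d 2, and the median was 3.78 without control replicate 3.

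The summed level of neutrophil markers was higher in every TL3d library than in any control, but no call in this list was firm. Of 17 tested, 7 were higher and 0 lower (41.2% higher, against 10.6% of all genes), with a median of 3.41. The summed level was 25.58, 51.2 and 191.6 CPM in control and 1375, 1256 and 722.7 CPM at TL3d. S100A12, a calcium-binding protein of neutrophil granules, was at 0.57, 3.55 and 12.9 CPM in control and 302, 299 and 31.1 CPM at TL3d. The change in S100A12 was 5.22 ± 1.59, q = 0.0474, and it was called in 2 fits, with highest q 0.14 without control replicate 2. PADI4, the enzyme that citrullinates histones in neutrophils, was at 1.57, 1.05 and 1.41 CPM in control and 86.4, 34.3 and 13.5 CPM at TL3d. The change in PADI4 was 5.06 ± 1.15, q = 0.0201, and it was called in 8 fits, with highest q 0.075 without control replicate 2. CXCR2, the receptor for neutrophil-attracting chemokines, did not pass, with 0.237, 0.2 and 6.42 CPM in control and 44.1, 20.6 and 11.7 CPM at TL3d (log2 fold change of 3.48 ± 1.28, q = 0.0819), and control replicate 3 was above the other controls. The members MPO and ELANE, made in bone marrow precursors, had too few counts to be tested. The list had 0 calls without control 1, control 2, TL3d 1 or TL3d 2, 6 to 11 in the other 8 fits, and a median of 5.07 without control replicate 3.

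Lymphocyte genes did not move together. Of 18 T cell genes, 2 were higher and 0 lower (11.1% higher, near the 10.6% of all genes), with a median of -0.46. CD3E, part of the T cell receptor complex, was at 2.47, 6.1 and 2.73 CPM in control and 1.3, 1.42 and 4.92 CPM at TL3d. The change in CD3E was -0.57 ± 0.62, q = 0.542. CD8B, a co-receptor chain, passed at 0.404, 1 and 0.376 CPM in control and 14.7, 16.8 and 11.1 CPM at TL3d (4.57 ± 1.09). CCR7, the receptor that guides cells to lymph nodes, passed at 0.285, 0.5 and 0.677 CPM in control and 6.47, 9.05 and 10.6 CPM at TL3d (4.15 ± 1.0). CD8A, the partner chain of CD8B, was at 2.28, 6.73 and 1.25 CPM in control and 0.45, 0.216 and 1.54 CPM at TL3d. The change in CD8A was -2.21 ± 0.84, q = 0.088. The T cell list had 0 higher calls without control 1, control 2, TL3d 1 or TL3d 2. CD8B and CCR7 were called in 7 and 8 fits, and both had their highest q without control replicate 1, at 0.0858 and 0.0871. Without TL3d replicate 3 the T cell median was -1.03. Of 15 B and plasma cell genes, 2 were higher (13.3%, also near that of all genes): MS4A1, the B cell surface protein CD20, by 2.49 ± 0.68 (7 fits, highest q 0.113 without control replicate 2) and PRDM1, a factor of plasma cells also active in epithelium, by 1.49 ± 0.33 (8 fits, highest q 0.0706 without control replicate 1). JCHAIN, the joining chain of secreted antibodies, was at 208, 494 and 2453 CPM in control and 592, 305 and 1728 CPM at TL3d. The change in JCHAIN was -0.27 ± 1.01, q = 0.873. CD22, an inhibitory receptor of B cells, was called in all 12 fits at 0.237, 0.6 and 0.778 CPM in control and 23.2, 24.7 and 20.7 CPM at TL3d (log2 fold change of 5.4 ± 0.92, q = 0.011), a gene that the rule for the largest changes picked.

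Mast cell genes split. Of 7 tested, 2 were higher and 1 lower (28.6% and 14.3%). MS4A2 and FCER1A, the chains of the high-affinity IgE receptor, rose by 3.9 ± 0.86 and 3.6 ± 0.77 (9 and 8 fits, highest q 0.0723 and 0.067, both without control replicate 1). MS4A2 was at 0.38, 0.475 and 1.13 CPM in control and 3.67, 7.42 and 18.6 CPM at TL3d, and the levels did not overlap. KIT, the receptor of stem cell factor, which melanocytes and some epithelial cells also carry, was at 215, 121 and 97.4 CPM in control and 16.6, 24.1 and 15.9 CPM at TL3d. The change in KIT was -2.94 ± 0.73, q = 0.026, and it was called in 7 fits, with highest q 0.0902 without TL3d replicate 1. The mast cell proteases CPA3, TPSAB1 and CMA1 were not tested. Without control 1, control 2, TL3d 1 and TL3d 2, the list had 0, 0, 1 and 0 higher calls and 0 lower calls.

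Interferon-stimulated genes were higher for a subset. Of 18 tested, 7 were higher and 0 lower (38.9% higher, against 10.6% of all genes), with a median of 0.96. IFIT3 was at 48, 40 and 23.7 CPM in control and 335, 317 and 244 CPM at TL3d (log2 fold change of 3.0 ± 0.36, q = 0.00695). OAS2, which makes the messenger that activates RNase L, rose by 1.97 ± 0.35. Both were firm. CXCL10, a chemokine for T cells, was at 22.5, 29.4 and 4.14 CPM in control and 76.4, 142 and 165 CPM at TL3d (2.77 ± 0.66, 8 fits, highest q 0.071 without control replicate 1). The count of members called was 4, 3, 3 and 3 without control 1, control 2, TL3d 1 and TL3d 2. Of 17 complement genes, 4 were higher and 1 lower (23.5% and 5.88%). C3AR1, the receptor of the fragment C3a on myeloid cells, was firm, at 1.02, 2.38 and 1.48 CPM in control and 19.3, 31.7 and 28.1 CPM at TL3d (log2 fold change of 4.02 ± 0.55, q = 0.00805), while C4A, a soluble component made in stroma and liver, did not pass at 553, 744 and 2278 CPM in control and 37.5, 182 and 926 CPM at TL3d. CLU, a secreted chaperone that also blocks complement, rose by 1.73 ± 0.48 (5 fits, highest q 0.131 without TL3d replicate 1). Complement calls were 2, 1, 1 and 1 higher without control 1, control 2, TL3d 1 and TL3d 2.

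The genes with the largest changes, outside those that the study's own tables list, included a pair of chemokines. CCL7, an attractant of monocytes (chromosome 19, 23731547 to 23733738 of the OryCun2.0 build), was at 0.285, 0.475 and 0.226 CPM in control and 40.4, 48.6 and 27 CPM at TL3d (log2 fold change of 6.86 ± 0.73, q = 0.00695) and was firm. CCL11, the eosinophil attractant eotaxin next to the same cluster, was at or near the floor in control, with 0.0237, 0.075 and 0.0753 CPM in control and 0.4, 7.91 and 5.07 CPM at TL3d, and was firm at q = 0.0105. OSM, a cytokine of activated leukocytes, was at 0.166, 0.1 and 0.527 CPM in control and 20.3, 10.8 and 7.97 CPM at TL3d. The change in OSM was 5.61 ± 1.46, q = 0.03, and it was called in 8 fits, with highest q 0.102 without control replicate 2. HMGA2, a chromatin protein of fetal and growing cells, was at 0.0237, 0.075 and 0.1 CPM in control and 5.82, 2.99 and 1.68 CPM at TL3d (q = 0.0159, 8 fits, highest q 0.0626 without control replicate 1), and ETV4, an ETS factor downstream of growth factor signalling, at 0.0949, 0.35 and 0.201 CPM in control and 25.1, 14.6 and 8.17 CPM at TL3d. The change in ETV4 was 6.19 ± 1.42, q = 0.0207, and it was called in 8 fits, with highest q 0.0787 without control replicate 1. The others of the 15 were CNFN, AVPR2, DDX43, AQP9, KRT17, IGSF9B, CD22, GPR33, IL3RA and MSR1. CD22 was firm, and the other 9 were called in 7 to 10 fits, with highest q of 0.0569 to 0.104. CCL11, HMGA2, CNFN, DDX43, GPR33 and IL3RA had a control mean under the floor and AQP9 one close to it, so their fitted folds depend on the prior count and are not given. Among genes with interleukin (IL) symbols, mostly interleukins and their receptors but also the oxidase IL4I1, 18 of 57 were higher and 2 lower (31.6% and 3.51%). IL4R, the receptor of IL-4 and IL-13, rose from 43.1 ± 11.9 to 186 ± 59.9 CPM (mean ± SD, n = 3) (log2 fold change of 2.11 ± 0.41, q = 0.0142, 9 fits, highest q 0.057 without control replicate 2). IL1R1 and IL6ST, the signalling receptors of IL-1 and of the IL-6 family, were the 2 that fell, from 664 ± 288 to 179.6 ± 10.8 CPM (mean ± SD, n = 3) and from 891 ± 182 to 461 ± 70 CPM (mean ± SD, n = 3) (-1.89 ± 0.46 and -0.95 ± 0.21, 8 fits each, highest q 0.0868 and 0.0747, both without TL3d replicate 2). These receptors were picked after their values were seen. Interleukin calls numbered 1, 1, 1 and 2 without control 1, control 2, TL3d 1 and TL3d 2.

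Genes of protein breakdown were higher in part, by less for the proteasome than for some cathepsins. Of 23 core proteasome subunits, 15 were higher and 0 lower (65.2%), with a median of only 0.57. PSMB3, a subunit of the catalytic ring, was at 50.5, 49.5 and 52.4 CPM in control and 100.4, 98.1 and 82 CPM at TL3d (log2 fold change of 0.88 ± 0.13, q = 0.00906) and was the 1 firm member. PSMD2, of the regulatory cap, rose by 0.82 ± 0.22 (6 fits, highest q 0.109 without TL3d replicate 1), and PSMC5, an ATPase of the same cap, did not pass at 0.06 ± 0.11. By symbol, 21 of 45 genes named PSM were higher (46.7%), one of them the recombination factor PSMC3IP, which is no proteasome subunit, and 10 of 32 ubiquitin-conjugating enzymes (31.2%). The list had 1 call without control 1, control 2, TL3d 1 or TL3d 2, 5 to 19 in the other 8 fits and 18 by DESeq2. Among 23 lysosomal hydrolases and proton pump subunits, 10 were higher and 0 lower, with a median of 0.64. The share higher was 43.5%, against 10.6% of all genes. Cathepsin C, which activates the proteases of leukocyte granules, was at 116, 131 and 168 CPM in control and 372, 432 and 503 CPM at TL3d (log2 fold change of 1.65 ± 0.21, q = 0.00695), and cathepsin Z at 102, 110.3 and 115 CPM in control and 171, 199.5 and 218 CPM at TL3d. The change in CTSZ was 0.85 ± 0.14, q = 0.00993. CTSC and CTSZ were firm, while CTSB rose by 1.91 ± 0.38 (9 fits, highest q 0.0608 without control replicate 2). The cathepsin family had 8 of 11 members higher and 1 lower (72.7% and 9.09%), the lower one being CTSO, at 36.9, 38.6 and 34.5 CPM in control and 19.2, 18.3 and 26.9 CPM at TL3d (-0.77 ± 0.19, 8 fits, highest q 0.091 without TL3d replicate 2). CTSE, an aspartic protease that was low in control, was at 0.237, 0.4 and 5.24 CPM in control and 54.1, 58.9 and 49.9 CPM at TL3d (3 fits, highest q 0.131 without control replicate 2). Lysosome calls were 3, 2, 4 and 2, and cathepsin calls 2, 2, 3 and 2, without control 1, control 2, TL3d 1 and TL3d 2.

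Both ferritin chains and SAA3 were among the genes with the highest levels at TL3d per transcript length. On the authors' FPKM scale, the ferritin chains FTH1 and FTL went from 1675 ± 571.2 to 3683 ± 342.5 FPKM and from 1043 ± 149.9 to 3101 ± 177 FPKM (mean ± SD, n = 3), which put them at rank 8 and 9 of all genes. SAA3, an acute phase serum amyloid, went from 460.9 ± 177 to 2816 ± 1329 FPKM. In the test on counts, FTL was at 599, 670 and 845 CPM in control and 2170, 1923 and 2121 CPM at TL3d and was firm (log2 fold change of 1.56 ± 0.21, q = 0.00794). FTH1 was called at a log2 fold change of 1.11 ± 0.29, q = 0.0303 (7 fits, highest q 0.104 without control replicate 2) and SAA3 at a log2 fold change of 2.59 ± 0.74, q = 0.0401 (4 fits, highest q 0.126 without control replicate 2). These genes were picked after their values were seen, as the called genes with the highest FPKM at TL3d after S100A10.

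Glycolysis genes were partly higher. Of 21 tested, 9 were higher and 0 lower (42.9% higher, against 10.6% of all genes), with a median of 0.52. PGAM1, a glycolytic mutase, was at 146, 145 and 156 CPM in control and 375, 362 and 306 CPM at TL3d (log2 fold change of 1.23 ± 0.19, q = 0.00971), and SLC16A3, which exports lactate, at 2.02, 3.55 and 2.63 CPM in control and 17, 12.2 and 18.7 CPM at TL3d. The change in SLC16A3 was 2.55 ± 0.42, q = 0.0102. Both were firm, with all their counts fractional. LDHA, which makes lactate, rose by 1.63 ± 0.42 (8 fits, highest q 0.103 without TL3d replicate 1), and SLC2A1, the glucose transporter GLUT1, by 1.66 ± 0.51 (3 fits, highest q 0.162 without TL3d replicate 1). The list had 2 calls without control 1, control 2, TL3d 1 or TL3d 2, and 7 to 9 in the other 8 fits. Of 21 subunits of oxidative phosphorylation, 2 were higher (9.52%, near the 10.6% of all genes), with a median of 0.20. NDUFA4, a small subunit of the respiratory chain, was firm at 0.91 ± 0.15. Of the 13 genes tested on the mitochondrial genome, which encodes other subunits, 5 were lower (38.5%), with a median of -0.47. ND2, a subunit of complex I picked after its values were seen, was at 1636, 1781 and 1617 CPM in control and 823, 893 and 1057 CPM at TL3d (log2 fold change of -0.86 ± 0.16, q = 0.0137, 9 fits, highest q 0.0572 without TL3d replicate 2). These genes had 1 call without control 1, none without control 2, TL3d 1 or TL3d 2, and 4 to 6 in the other 8 fits.

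Of 19 genes of cholesterol synthesis, 5 were higher and 0 lower (26.3% higher), with a median of 0.51. SQLE, which oxidises squalene, was at 10.5, 12.7 and 15.1 CPM in control and 59.4, 50 and 32 CPM at TL3d (log2 fold change of 1.89 ± 0.52, q = 0.0366, 5 fits, highest q 0.114 without control replicate 1). The cholesterol list had 0 calls without control 1, control 2, TL3d 1 or TL3d 2. Among 20 genes of folding and secretion in the endoplasmic reticulum, 8 were higher (40%, against 10.6% of all genes), with a median of 0.81. HYOU1, a chaperone, rose by 1.07 ± 0.3 (4 fits, highest q 0.114 without control replicate 2), while HSPA5, the main chaperone of this compartment, had a log2 fold change of 0.94 ± 0.29, q = 0.0512. One member of this list was called without each of control 1, control 2, TL3d 1 and TL3d 2. Of 22 ATF4 targets, genes of amino acid supply under stress, 6 were higher (27.3%). CHAC1, which degrades glutathione, was at 0, 0.1 and 0.151 CPM in control and 5.62, 2.62 and 1.22 CPM at TL3d (q = 0.0131, 11 fits, highest q 0.0531 without control replicate 2), and PSAT1, an enzyme of serine synthesis, at 4.44, 4.45 and 3.66 CPM in control and 57.2, 36.8 and 26.1 CPM at TL3d. The change in PSAT1 was 3.26 ± 0.59, q = 0.0119, and it was called in 11 fits, with highest q 0.0511 without control replicate 2. ASNS, a standard ATF4 target, did not pass at a log2 fold change of 0.06 ± 0.28, q = 0.897. The list had 2, 0, 2 and 3 calls without control 1, control 2, TL3d 1 and TL3d 2.

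Single keratins changed in each direction. Of 19 tested, 4 were higher and 1 lower (21.1% and 5.26%, against 10.6% and 7% of all genes). KRT15, a keratin of basal cells in resting stratified epithelia, was at 2743, 2470 and 1447 CPM in control and 159, 219 and 437 CPM at TL3d. The change in KRT15 was -3.03 ± 0.78, q = 0.0291, and it was called in 8 fits, with highest q 0.106 without TL3d replicate 2. KRT17, a keratin of wounded epithelium, was at 12.3, 17.8 and 21.6 CPM in control and 726, 1219 and 328 CPM at TL3d (log2 fold change of 5.46 ± 1.36, q = 0.0263, 7 fits, highest q 0.0926 without control replicate 1), and KRT16, its usual companion and a gene in the study's tables, at 0.142, 0.325 and 0.226 CPM in control and 167, 109.9 and 12.9 CPM at TL3d (10 fits, highest q 0.0566 without control replicate 1). KRT5, the keratin of basal cells, rose by 1.86 ± 0.48 (7 fits, highest q 0.0944 without TL3d replicate 2). Each of these keratins had fractional counts in at least 83.3% of libraries, so reads shared among keratins could have moved between them. TL3d replicate 3, with the least keratin RNA, had the smallest change in KRT15, KRT16 and KRT17. Keratin calls were 0 higher without control 1 or control 2, and 1 without TL3d 1 or TL3d 2.

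Of 14 genes of the cornified envelope and barrier, 4 were higher (28.6%, against 10.6% of all genes). IVL, the envelope protein involucrin, was at 0.498, 0.4 and 1.38 CPM in control and 11.1, 4.1 and 1.2 CPM at TL3d (log2 fold change of 2.84 ± 0.78, q = 0.0347, 6 fits, highest q 0.131 without TL3d replicate 1), and DSG3, a desmosomal cadherin of basal layers, rose by 1.9 ± 0.51 (7 fits, highest q 0.106 without TL3d replicate 1). Of 22 genes of the basement membrane and hemidesmosome, 2 were higher (9.09%, a share near that of all genes). ITGA6, the integrin chain that anchors basal cells, was at 67.6, 63.8 and 81 CPM in control and 604, 292 and 129 CPM at TL3d. The change in ITGA6 was 2.27 ± 0.52, q = 0.0207, and it was called in 8 fits, with highest q 0.0741 without control replicate 2. LAMA3, its laminin ligand, was at 202, 125 and 89.1 CPM in control and 1530, 1003 and 189.9 CPM at TL3d. The change in LAMA3 was 2.71 ± 0.83, q = 0.0491, and it was called in 3 fits, with highest q 0.153 without TL3d replicate 1. Barrier and basement membrane lists had 0 calls without control 1, control 2, TL3d 1 or TL3d 2. None of 17 mucin and goblet cell genes was called by edgeR, with 1 higher and 3 lower at an unadjusted p under 0.05 and the same counts by DESeq2. Their median was -0.14. MUC17, a membrane mucin of the study's tables that is not in the list, was called higher, at 0.0475, 0 and 0 CPM in control and 2.45, 2.37 and 0.768 CPM at TL3d (q = 0.0114, 11 fits, highest q 0.0505 without control replicate 2), and was under the floor in every control library. SPDEF, the transcription factor of goblet cells, was at 8.66, 13 and 14.8 CPM in control and 2.85, 2.77 and 3.96 CPM at TL3d (log2 fold change of -1.93 ± 0.73, q = 0.0893), and MUC4, a membrane mucin, at 1739, 2212 and 2707 CPM in control and 2060, 3003 and 1384 CPM at TL3d. The change in MUC4 was -0.05 ± 0.31, q = 0.931. Of 14 claudins, the proteins of tight junctions, 4 were lower and 0 higher (28.6%). CLDN8, which limits sodium leak in epithelia, was at 24.2, 34.4 and 14.2 CPM in control and 2.85, 3.36 and 8.57 CPM at TL3d (log2 fold change of -2.3 ± 0.65, q = 0.0389, 7 fits, highest q 0.132 without TL3d replicate 2), and CLDN3 fell by 1.61 ± 0.49 (3 fits, highest q 0.138 without TL3d replicate 1). Without control replicate 2 the claudins had 1 call, and without control 1, TL3d 1 or TL3d 2 none. Of 11 corneal epithelium genes, 3 were higher (27.3%), KRT3 (5 fits, highest q 0.109 without control replicate 2), CLU and WNT7A (8 fits, highest q 0.062 without control replicate 2). PAX6, the eye's master factor, did not pass at 382, 291 and 199.9 CPM in control and 147, 132 and 111 CPM at TL3d. The change in PAX6 was -1.16 ± 0.4, q = 0.0688.

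The main fibrillar collagens varied widely within both groups. COL1A1, the main chain of fibrillar collagen, was at 2416, 8279 and 18610 CPM in control and 342, 3452 and 19530 CPM at TL3d (log2 fold change of -0.33 ± 1.15, q = 0.86), so that the lowest and the highest libraries were both at TL3d. Of 24 collagen chains, 4 were higher (16.7%): COL7A1, which anchors epithelium to stroma, by 1.02 ± 0.26 (7 fits, highest q 0.106 without TL3d replicate 2), COL8A1, of vessel and corneal endothelium, by 2.65 ± 0.82 (1 fit, highest q 0.129 without control replicate 1), COL15A1 by 2.77 ± 0.83 (3 fits, highest q 0.13 without control replicate 2) and COL18A1 by 1.28 ± 0.39 (2 fits, highest q 0.143 without control replicate 1), both of basement membranes. The median was 0.08, and ran from -0.28 without TL3d replicate 3 to 0.88 without control replicate 3. Outside the list, 2 collagen chains fell. COL2A1, the fibrillar chain of cartilage and the vitreous and among the 15 largest negative changes, was at 2.92, 9.98 and 67 CPM in control and 0.225, 0.0924 and 0.626 CPM at TL3d (log2 fold change of -6.38 ± 1.76, q = 0.0361, 5 fits, highest q 0.122 without TL3d replicate 2). COL22A1, of tissue junctions, was picked after its values were seen and fell from 4.28 ± 0.398 to 0.397 ± 0.446 CPM (mean ± SD, n = 3) (log2 fold change of -3.42 ± 0.96, q = 0.0376, 5 fits, highest q 0.126 without TL3d replicate 2). DCN, the small proteoglycan decorin, was at 1499, 3061 and 9563 CPM in control and 216, 843 and 2834 CPM at TL3d. OGN, the proteoglycan osteoglycin, was at 271, 532 and 2733 CPM in control and 3.4, 32.4 and 156 CPM at TL3d. Neither passed (q = 0.21 and 0.0756). The 1 lower member among 22 elastic fibre and proteoglycan genes (4.55%, below the 7% of all genes) was LTBP4, which holds latent TGF-beta. LTBP4 was at 84.6, 87.9 and 172 CPM in control and 10.5, 13 and 24.1 CPM at TL3d (log2 fold change of -2.86 ± 0.67, q = 0.0217, 8 fits, highest q 0.0831 without TL3d replicate 2). Among 22 genes of collagen processing, LOXL4, a crosslinking oxidase, was the 1 called (4.55%, below the 10.6% of all genes). LOXL4 was at 8.88, 14.1 and 19.4 CPM in control and 80.6, 117 and 87.2 CPM at TL3d. The change in LOXL4 was 2.75 ± 0.82, q = 0.0448, and it was called in 2 fits, with highest q 0.136 without control replicate 1. The collagen chain, collagen processing and elastic fibre lists had 0 calls without control 1, control 2, TL3d 1 or TL3d 2.

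Signalling pathways had calls in both directions. Of 23 TGF-beta and activin genes, 4 were higher and 1 lower (17.4% and 4.35%, against 10.6% and 7% of all genes). INHBA, a chain of the ligand activin A, was at 3.06, 4.03 and 5.67 CPM in control and 11.1, 62.2 and 70.7 CPM at TL3d (log2 fold change of 3.5 ± 1.02, q = 0.0419, 2 fits, highest q 0.127 without control replicate 1), and TGFB1 rose by 1.78 ± 0.54 (2 fits, highest q 0.144 without control replicate 1). Of 28 BMP genes, 4 were higher and 2 lower (14.3% and 7.14%). ID1, a direct target of BMP signalling that also rises in dividing cells, was firm at 14.6, 16.9 and 13 CPM in control and 70.7, 42.1 and 33 CPM at TL3d. The change in ID1 was 1.71 ± 0.3, q = 0.0114. CHRD, the secreted BMP antagonist chordin, rose by 2.99 ± 0.8 (7 fits, highest q 0.107 without control replicate 2), and the ligands BMP3 and BMP7 fell, at -2.3 ± 0.43 and -1.33 ± 0.28 (10 and 9 fits, highest q 0.0559 and 0.0663, both without TL3d replicate 2). Of 34 WNT genes, 2 were higher and 2 lower (5.88% each), and the ligand WNT7A, which is counted with the corneal genes, was also higher. The ligands WNT10B and WNT16 fell, at -1.92 ± 0.55 and -2.06 ± 0.52 (5 and 7 fits, highest q 0.129 without TL3d replicate 1, and highest q 0.0975 without TL3d replicate 2), while WNT3 and RSPO2, genes of the study's tables, were under the floor in every control library. WNT3 was at 0, 0 and 0.0251 CPM in control and 0.675, 1.02 and 0.427 CPM at TL3d (q = 0.0431, 3 fits, highest q 0.13 without control replicate 1). RSPO2, which strengthens WNT signalling, was at 0, 0 and 0.0251 CPM in control and 1.2, 2.09 and 10.9 CPM at TL3d (q = 0.0334, 6 fits, highest q 0.108 without control replicate 2). Of 14 hedgehog genes, 2 were lower (14.3%), among them PTCH1, a receptor that is also a target of the pathway, at 19.2, 16.7 and 21.7 CPM in control and 5.17, 6.78 and 7.4 CPM at TL3d (log2 fold change of -1.57 ± 0.32, q = 0.0159, 9 fits, highest q 0.0624 without TL3d replicate 1). Without control 1, control 2, TL3d 1 or TL3d 2, the TGF-beta list had 0 calls, the BMP list 1 higher call in each fit and 2, 1, 0 and 0 lower calls, and the WNT and hedgehog lists at most 1 call each.

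Vessel genes had few calls. Of 22 vascular endothelial genes, 2 were higher and 0 lower (9.09% higher, against 10.6% of all genes), with a median of 1.08, which was 0.77 without TL3d replicate 3 and 1.64 without control replicate 3. ESM1, a proteoglycan of sprouting tip cells, was at 0.783, 4.03 and 5.14 CPM in control and 21.6, 33.6 and 35 CPM at TL3d (log2 fold change of 3.18 ± 0.83, q = 0.0297, 7 fits, highest q 0.0851 without control replicate 2), and ENG, a co-receptor of endothelial TGF-beta signalling, rose by 1.84 ± 0.54 (5 fits, highest q 0.117 without control replicate 2). CDH5 and VWF, defining endothelial genes, did not pass, at a log2 fold change of 1.09 ± 0.83, q = 0.371 and log2 fold change of 1.49 ± 0.86, q = 0.238. Among 12 lymphatic genes, 2 were higher and 1 lower (16.7% and 8.33%, against 10.6% and 7% of all genes). PDPN and NRP2 were higher, by 2.23 ± 0.57 (7 fits, highest q 0.0971 without control replicate 1) and 3.16 ± 0.95 (3 fits, highest q 0.133 without control replicate 1). PROX1 and LYVE1, which define lymphatic endothelium, did not pass at 0.6 ± 0.66 and -0.12 ± 1.1. CLDN11 was lower in the same list, at 2.26, 0.825 and 24.6 CPM in control and 0.425, 0.246 and 0.455 CPM at TL3d (7 fits, highest q 0.114 without TL3d replicate 2). ACTA2, the smooth muscle actin of myofibroblasts and vessel walls, was at 6.19, 11.7 and 17.9 CPM in control and 21.1, 119.7 and 450 CPM at TL3d (log2 fold change of 4.04 ± 1.33, q = 0.061), with all 3 TL3d libraries above control and a wide span among them. Of 19 pericyte and smooth muscle genes, 2 were higher (10.5%, as among all genes), SMTN and ACTG2, at 1.26 ± 0.3 (8 fits, highest q 0.0799 without TL3d replicate 2) and 4.37 ± 1.27 (2 fits, highest q 0.126 without control replicate 1). The vascular and pericyte lists had 0 calls without control 1, control 2, TL3d 1 or TL3d 2, and the lymphatic list had 0 higher calls in these fits. Of 12 adipocyte genes, 1 was higher and 2 lower (8.33% and 16.7%). LPL, the lipase that frees fatty acids from lipoproteins, was at 34.9, 87.7 and 339.6 CPM in control and 4.8, 4.28 and 9.56 CPM at TL3d (log2 fold change of -4.63 ± 0.94, q = 0.0156, 10 fits, highest q 0.065 without TL3d replicate 2), ADIPOQ did not pass at a log2 fold change of 0.12 ± 0.8, q = 0.93, and CD36, the fatty acid transporter that macrophages also carry, rose by 2.26 ± 0.46 (9 fits, highest q 0.0561 without control replicate 2). Of 8 lacrimal gland genes, 1 was higher (12.5%, near the 10.6% of all genes). It was ACTN1, a broadly expressed actinin, at 1.97 ± 0.56 (2 fits, highest q 0.114 without control replicate 2).

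**Figure D3:**
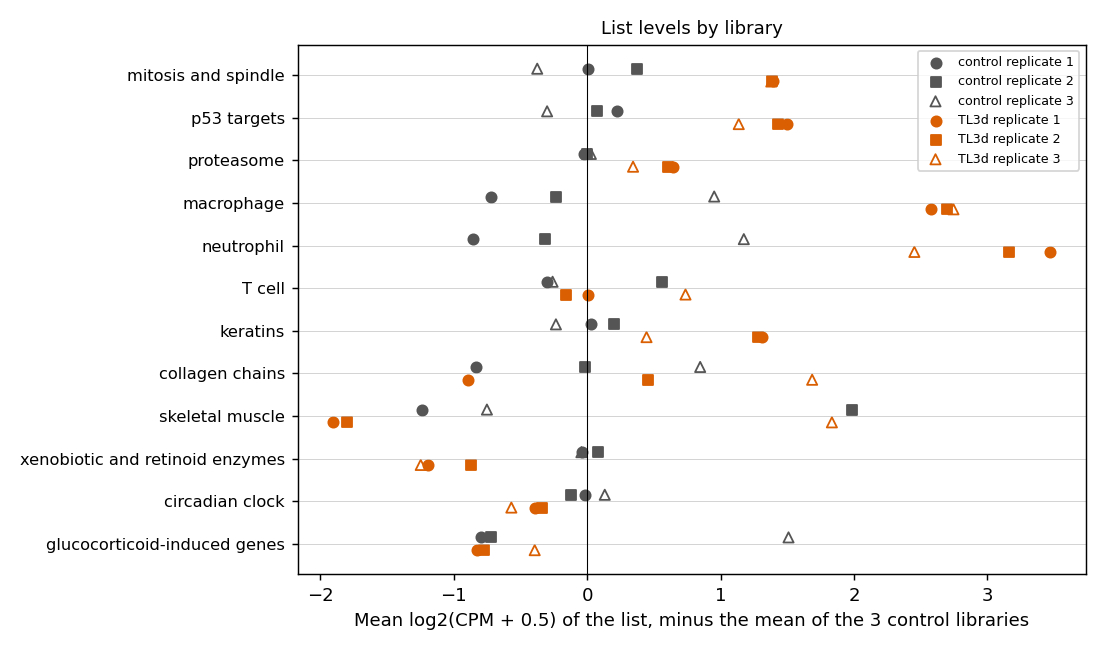
Mean log2(CPM + 0.5) of the genes of 12 lists in each library, minus the mean of the 3 control libraries, with control in grey, TL3d in orange and replicate 3 as open triangles. Mitosis and p53 target levels separate the groups, collagen and skeletal muscle levels span both groups, and control replicate 3 lies at 1.51 for glucocorticoid-induced genes against -0.79 and -0.72 in the other controls.

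Nerve genes were mostly negative with few calls. Of 17 Schwann cell and myelin genes, 1 was higher and 0 lower (5.88% higher), with a median of -1.35, and 3 were lower at an unadjusted p under 0.05. L1CAM, an adhesion molecule of axons that also appears on other cells, was the member called, at 3.23, 1.93 and 2.43 CPM in control and 42, 22.6 and 11.3 CPM at TL3d. The change in L1CAM was 3.32 ± 0.72, q = 0.0178, and it was called in 8 fits, with highest q 0.0681 without control replicate 2. Of 16 synapse and ion channel genes, 3 were lower (18.8%), GRIK1, GRIA1 and CACNB4 (7 fits, highest q 0.132 without TL3d replicate 2). GRIK1, a kainate receptor subunit in the study's tables, was at 6.12, 6.13 and 42.4 CPM in control and 0.05, 0.0924 and 0.0569 CPM at TL3d (q = 0.0394, 5 fits, highest q 0.126 without TL3d replicate 1), and the AMPA receptor subunit GRIA1 at 0.0949, 1.5 and 1.28 CPM in control and 0.025, 0.0308 and 0 CPM at TL3d (q = 0.0236, 8 fits, highest q 0.0818 without TL3d replicate 1), both at or under the floor at TL3d. By symbol, 2 of 13 glutamate receptors were higher and 3 lower. The higher ones, picked after their values were seen, were GRIN2C, at 0.356, 0.225 and 0.426 CPM in control and 1.8, 3.94 and 1.02 CPM at TL3d (log2 fold change of 2.73 ± 0.63, q = 0.0207, 8 fits, highest q 0.0818 without TL3d replicate 2), and GRM5, which rose by 2.33 ± 0.59 (7 fits, highest q 0.0923 without TL3d replicate 2). The axon guidance genes had calls both ways, with 5 of 24 semaphorins and plexins higher and 2 lower (20.8% and 8.33%, against 10.6% and 7% of all genes). SEMA4D, an immune semaphorin, was firm at 25.7, 26.7 and 28.3 CPM in control and 79.7, 108 and 95.3 CPM at TL3d (log2 fold change of 1.81 ± 0.28, q = 0.00971), and its receptor family member PLXND1 rose by 1.57 ± 0.34 (9 fits, highest q 0.0599 without control replicate 2). SEMA3B, a secreted repellent, was at 118, 148 and 265 CPM in control and 17.1, 19.5 and 40 CPM at TL3d. The change in SEMA3B was -2.8 ± 0.72, q = 0.0294, and it was called in 7 fits, with highest q 0.108 without TL3d replicate 2. Of the 15 largest negative changes, NLGN1, CBLN4, CNTNAP2 and LGI1 encode synaptic or axonal proteins. LGI1, a secreted synaptic ligand also found in Schwann cells, was at 13.4, 16.7 and 106 CPM in control and 0.999, 0.893 and 2.93 CPM at TL3d (log2 fold change of -4.82 ± 1.03, q = 0.0175, 10 fits, highest q 0.0704 without TL3d replicate 2), and CNTNAP2, of axon junctions, at 1.71, 1.95 and 3.16 CPM in control and 0.075, 0.0308 and 0.0854 CPM at TL3d (q = 0.0113, 11 fits, highest q 0.0505 without TL3d replicate 2). NLGN1 and CBLN4 were called in 9 and 10 fits. Control replicate 3 held the highest level of each of these 4. The semaphorin list had 1, 1, 2 and 1 higher calls without control 1, control 2, TL3d 1 and TL3d 2. In the same fits the synapse and ion channel list had 1, 0, 0 and 0 lower calls.

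Enzymes of drug and retinoid metabolism were lower in part. Of 19 tested, 6 were lower and 1 higher (31.6% lower, against 7% of all genes), with a median of -0.85. CYP2A11 and CYP4A7, cytochromes P450 that are in the study's tables, were firm. CYP2A11 was at 884, 1107 and 434 CPM in control and 2.92, 7.33 and 6.29 CPM at TL3d, with a log2 fold change of -7.2 ± 1.16, q = 0.01. CYP4A7 was at 21.5, 17.6 and 11.9 CPM in control and 0.575, 0.862 and 0.512 CPM at TL3d. The change in CYP4A7 was -4.71 ± 0.8, q = 0.011. By symbol, 6 of 11 cytochromes P450 were lower and 1 higher (54.5% and 9.09%). CYP3A6, of the main drug-oxidising subfamily, was at 31.2, 44.1 and 36.8 CPM in control and 2.75, 3.08 and 5.32 CPM at TL3d. The change in CYP3A6 was -3.33 ± 0.71, q = 0.0173, and it was called in 9 fits, with highest q 0.0689 without TL3d replicate 2. FMO5, a flavin monooxygenase, was at 30.4, 29.8 and 22.4 CPM in control and 8.39, 10.3 and 10.9 CPM at TL3d. The change in FMO5 was -1.48 ± 0.33, q = 0.0192, and it was called in 8 fits, with highest q 0.0734 without TL3d replicate 1. FMO2, another of that family, was among the 15 largest negative changes, at 19.6, 20.9 and 3.29 CPM in control and 0.375, 0.216 and 0.256 CPM at TL3d (5 fits, highest q 0.124 without TL3d replicate 2). ALDH1A1, which makes retinoic acid from retinal, was at 1317, 1145 and 854 CPM in control and 550, 414 and 429.8 CPM at TL3d. The change in ALDH1A1 was -1.25 ± 0.34, q = 0.0333, and it was called in 7 fits, with highest q 0.115 without TL3d replicate 2. The aldehyde oxidases AOX1 and AOX3 lie next to each other (chromosome 7, 141217000 to 141288933 of the OryCun2.0 build, and chromosome 7, 141293821 to 141423314 of the OryCun2.0 build) and were firm, though outside the list and noted after their values were seen. AOX1 was at 153, 186 and 164 CPM in control and 57.3, 65.6 and 81.1 CPM at TL3d (log2 fold change of -1.3 ± 0.2, q = 0.00981) and AOX3 at 72.3, 80.2 and 51.5 CPM in control and 4.92, 9.08 and 14.8 CPM at TL3d. The change in AOX3 was -2.82 ± 0.44, q = 0.00971. Without control 1, control 2, TL3d 1 or TL3d 2, 2 list members remained called in each fit, and 4 to 8 in the other 8 fits.

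Genes of amino acid and fatty acid breakdown were lower in part. In the pathway column of the authors' table, 14 of 51 genes of valine, leucine and isoleucine degradation were lower and 2 higher (27.5% and 3.92%, against 7% and 10.6% of all genes), 12 of 58 of lysine degradation were lower and 3 higher, and 9 of 43 of fatty acid degradation were lower and 1 higher. Among 14 aldehyde dehydrogenases, 4 were lower and 0 higher (28.6%). ALDH6A1, of valine breakdown, was at 98.2, 98.3 and 89.6 CPM in control and 28.3, 32.2 and 39.6 CPM at TL3d. The change in ALDH6A1 was -1.52 ± 0.31, q = 0.0165, and it was called in 8 fits, with highest q 0.0633 without TL3d replicate 2. ALDH2, the mitochondrial enzyme that clears acetaldehyde, fell from 199.9 ± 17.8 to 79 ± 11.9 CPM (mean ± SD, n = 3) (-1.34 ± 0.35, 7 fits, highest q 0.111 without TL3d replicate 2). The same column gave 48 of 145 phagosome genes higher (33.1%), 42 of 125 osteoclast differentiation genes (33.6%) and 24 of 98 genes of HIF-1 signalling (24.5%). The pathways named here were picked from many, by no set rule, and others had larger shares. Asthma had 17 of 31 genes higher (54.8%), and beta-alanine metabolism 7 of 21 lower (33.3%). Without control 1, control 2, TL3d 1 and TL3d 2, lower calls fell to 2 in each fit for valine, leucine and isoleucine degradation, to 1 in each for lysine degradation and to 2, 1, 2 and 1 for fatty acid degradation. Higher calls fell to 10, 6, 18 and 11 for the phagosome, 2, 1, 7 and 3 for osteoclast differentiation and 3, 2, 2 and 2 for HIF-1 signalling. The aldehyde dehydrogenases had 0 calls without control 1, control 2, TL3d 1 or TL3d 2.

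**Figure D4:**
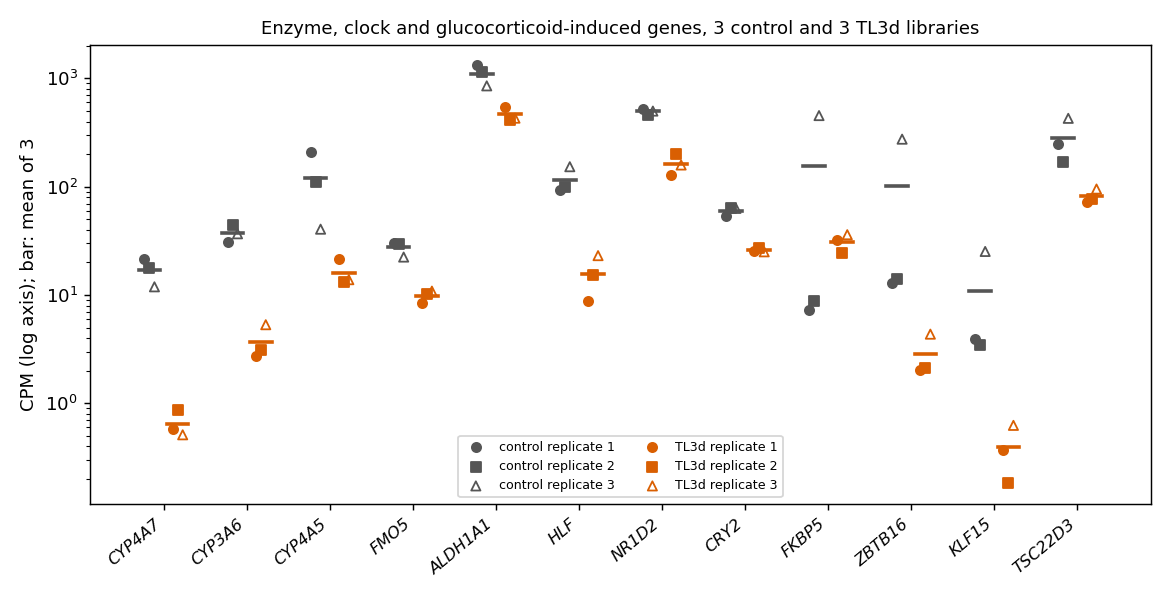
CPM on a log axis of 12 enzyme, clock and glucocorticoid-induced genes in the 3 control (grey) and 3 TL3d (orange) libraries, with bars at the group means. The enzymes and clock genes separate by group, and for FKBP5 and ZBTB16 control replicate 3 (open grey triangles), at 454 and 275 CPM, lies above the other 5 libraries.

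Clock genes were lower in part. The clock is a feedback loop in which the proteins PER and CRY inhibit their own activators through the day, and its output includes the PAR-domain factors HLF and TEF. Of 17 tested, 5 were lower and 1 higher (29.4% and 5.88%, against 7% and 10.6% of all genes), with a median of -0.85. HLF (chromosome 19, 32584368 to 32638265 of the OryCun2.0 build) was firm, at 93.7, 98.6 and 153 CPM in control and 8.74, 15.3 and 23.1 CPM at TL3d. The change in HLF was -2.87 ± 0.43, q = 0.0095. NR1D2, a repressor of the loop, was at 525, 464 and 499.6 CPM in control and 129.6, 199 and 159 CPM at TL3d (log2 fold change of -1.61 ± 0.29, q = 0.0118), called in 11 fits with highest q 0.05 without TL3d replicate 1. CRY2 and TEF fell, at -1.22 ± 0.35 (5 fits, highest q 0.114 without TL3d replicate 1) and -1.38 ± 0.41 (3 fits, highest q 0.146 without TL3d replicate 1). BHLHE40, a repressor that stress also induces, rose by 1.12 ± 0.31 (5 fits, highest q 0.117 without TL3d replicate 2). The hour at which eyes were taken is not known, so that a difference in hour and a difference between groups cannot be told apart. The count of lower members was 2, 2, 1 and 2 without control 1, control 2, TL3d 1 and TL3d 2, and 2 to 8 in the other 8 fits.

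The result for genes that glucocorticoids induce depended on 1 control library. Of 18 tested, 4 were lower and 0 higher (22.2% lower), with a median of -1.19, against 0.09 without control replicate 3, when 4 were higher and 0 lower. FKBP5, a co-chaperone of the glucocorticoid receptor and its standard target, was at 7.26, 8.83 and 454 CPM in control and 32.1, 24.6 and 36.1 CPM at TL3d. The log2 fold change was -2.34 ± 1.26, q = 0.205, with all libraries and 1.93 (q = 0.0245) without control replicate 3. PDK4, a kinase that spares glucose, was at 4.63, 5.35 and 356 CPM in control and 54.7, 29.2 and 15.5 CPM at TL3d, with a log2 fold change of -1.88 ± 1.31, q = 0.322, and 2.72 (q = 0.0204) without that library. ZBTB16, a zinc finger factor that glucocorticoids raise, was at 13, 14 and 275 CPM in control and 2.05, 2.13 and 4.35 CPM at TL3d (log2 fold change of -5.14 ± 1.29, q = 0.0268, 9 fits, highest q 0.0997 without TL3d replicate 2), and the fold change was -2.26 (q = 0.0563) without control replicate 3. KLF15, a factor of fuel metabolism, was at 3.92, 3.45 and 25.3 CPM in control and 0.375, 0.185 and 0.626 CPM at TL3d (log2 fold change of -4.77 ± 1.17, q = 0.0246, 7 fits, highest q 0.0944 without TL3d replicate 2), and -3.22 (q = 0.0529) without it. TSC22D3, the leucine zipper GILZ, was at 247, 171 and 428 CPM in control and 72.5, 76.7 and 95.3 CPM at TL3d. The change in TSC22D3 was -1.79 ± 0.53, q = 0.0449, and it was called in 3 fits, with highest q 0.135 without TL3d replicate 1. The mean level of the list in control replicate 3, 1.51 on the log2 scale above the control mean, was close to the 1.55 to 1.84 of the TL3h libraries, while control replicates 1 and 2 were at -0.79 and -0.72 and the TL3d libraries at -0.82, -0.77 and -0.39. What set control replicate 3 apart was not tested. The list had 1, 1, 0 and 0 lower calls without control 1, control 2, TL3d 1 and TL3d 2.

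Zinc finger and ciliary transport genes had many lower members. Of 213 zinc finger proteins named ZNF, 37 were lower and 2 higher (17.4% and 0.939%), with a median of -0.37, and 43 of the 213 had a positive fold change. ZNF74 was at 22.5, 18.3 and 12.6 CPM in control and 3.85, 5.97 and 6.92 CPM at TL3d. The change in ZNF74 was -1.67 ± 0.44, q = 0.0302, and it was called in 8 fits, with highest q 0.106 without TL3d replicate 1. The lower count was 2, 0, 2 and 0 without control 1, control 2, TL3d 1 and TL3d 2, 27 to 50 in the other 8 fits and 71 by DESeq2. Of 14 intraflagellar transport proteins, which carry cargo along cilia, 5 were lower and 0 higher (35.7%). IFT122 was at 18.2, 16.4 and 17.4 CPM in control and 6.12, 6.78 and 8.34 CPM at TL3d (log2 fold change of -1.29 ± 0.27, q = 0.0173, 8 fits, highest q 0.0674 without TL3d replicate 2) and IFT172 fell by 1.18 ± 0.28 (8 fits, highest q 0.0901 without TL3d replicate 2). No member was called without control 1, control 2, TL3d 1 or TL3d 2, and 4 to 6 were in the other 8 fits. Of 13 genes of motile cilia, 1 was lower (7.69%, near the 7% of all genes), HYDIN, at 4.6, 4.18 and 4.11 CPM in control and 0.575, 0.339 and 1.14 CPM at TL3d. The change in HYDIN was -2.64 ± 0.55, q = 0.0169, and it was called in 8 fits, with highest q 0.065 without TL3d replicate 1.

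Other families had few or no calls. None of 14 gap junction genes was called by edgeR, 3 had an unadjusted p under 0.05 and DESeq2 called 3. Of 32 aminoacyl-tRNA synthetases, 1 was called (3.12%), MARS, at a log2 fold change of 1.02 ± 0.29, q = 0.0383 (4 fits, highest q 0.123 without TL3d replicate 1). Of 65 heat shock and DNAJ proteins, 3 were called (4.62%), and of 64 ribosomal proteins, 3 (4.69%), with medians of 0.18 and -0.08. RPS27L, a ribosomal protein paralogue that p53 induces, was one of these, at 75.7, 61.4 and 62.9 CPM in control and 111, 111 and 114 CPM at TL3d. The change in RPS27L was 0.75 ± 0.14, q = 0.0132, and it was called in 10 fits, with highest q 0.0557 without control replicate 2.

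**Figure D5:**
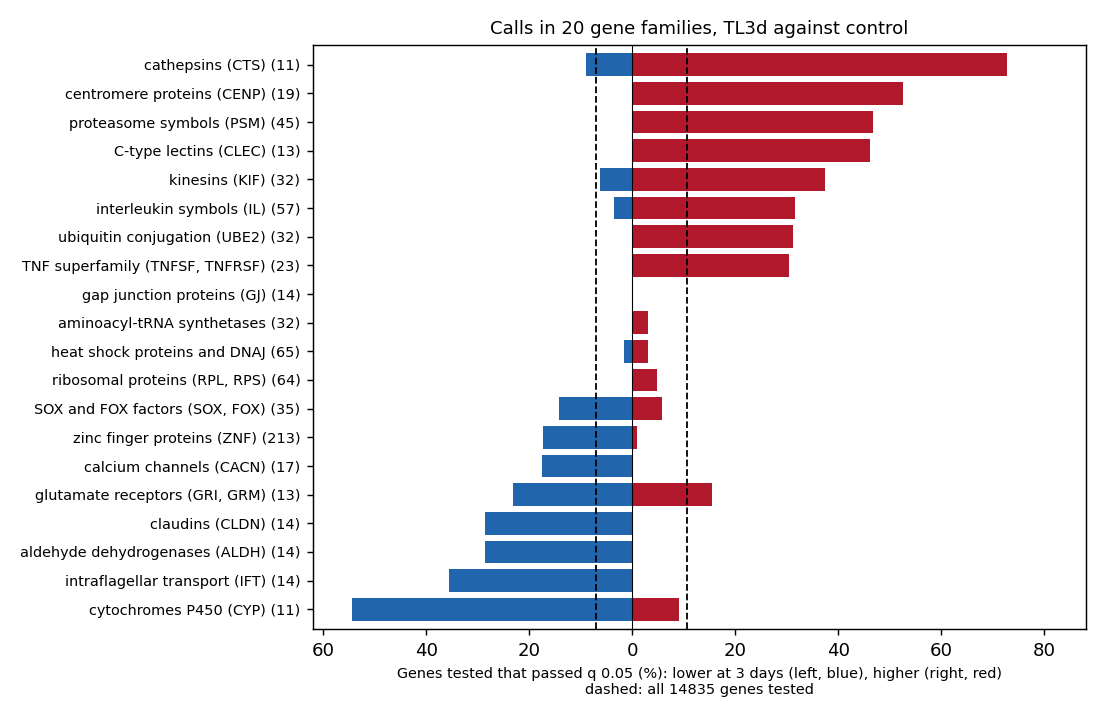
Percent of genes tested that were called higher (right, red) or lower (left, blue) at TL3d in 20 gene families found by symbol, with the number tested in parentheses and dashed lines at the 10.6% and 7% of all genes. Cathepsins, centromere proteins and genes with proteasome symbols lie at the top with 72.7%, 52.6% and 46.7% higher, and cytochromes P450 at the bottom with 54.5% lower.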

How the data were processed

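RNA was isolated from rabbit conjunctiva, made into TruSeq Stranded mRNA libraries and sequenced by the authors, who aligned the reads with STAR 2.6.0c to the OryCun2.0 build. The authors deposited, per gene, estimated counts, which need not be whole because reads shared between loci are divided (23.4% of the count values were fractions), and FPKM values, which divide them by transcript length and depth. Both came from replicates kept apart. Here the estimated counts were rounded, genes were kept by filterByExpr (minimum count 10, total 15), and TMM normalization and glmQLFit and glmQLFTest of edgeR 4.0.16 (R 4.3.3) were run on all 12 libraries at once, with the contrast TL3d minus control and Benjamini-Hochberg adjustment over 14835 genes at q of at most 0.05. The SE is the fold change divided by the square root of F. FPKM values were used only for levels between genes. Libraries of a group were checked for copies, and none were found.

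The named genes are the 15 largest positive and 15 largest negative fold changes among called genes whose groups do not overlap, with at least 1 CPM in one group, a symbol and no entry in the study's tables, and in each of 44 lists up to 4 called members in the main direction and 2 in the other. All other genes in the text either did not pass or were picked after their values were seen, also where the text does not repeat this. Members, lists and families were chosen with earlier results of these data known, so no set test was run. Pathway counts use the authors' pathway column and were added after the files were seen. The transcript table was not used. Values of some list members are not reported here. List symbols were matched to the table by symbol (847) or gene ID (35), and 81 were not found. On simulated counts made from these libraries, with 200 of 14699 genes changed, 120 were recovered with 6 false calls: 5 of 50 at 2-fold, 28 of 50 at 4-fold, 43 of 50 at 8-fold and 44 of 50 at 16-fold. Alternatives were DESeq2 1.42.0, its size factors in edgeR, library size alone, no filter, the 6 libraries alone, a replicate block, a fold minimum of 2 and leaving out each library.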

Additional observations from a re-analysis of the deposited data

How the results depend on the processing

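Calls past the threshold numbered 2608 (1569 higher, 1039 lower), 2579 with DESeq2's size factors, 2514 with library size alone, 2201 without a filter and 3263 with the 6 libraries alone. The DESeq2 Wald test gave 4439 (2382 higher, 2057 lower), with 2605 of the 2608 among them and 2267 genes without an adjusted p. A minimum fold of 2 left 1650 (559 lower). Leaving out 1 library gave 359 to 3778 calls, 265 to 2170 higher and 61 to 1608 lower. Leaving out control replicate 3 and TL3d replicate 3 together, an alternative chosen after seeing the data, gave 1653 (983 higher, 670 lower), 1336 of them among the 2608. The cause of these differences was not tested.

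Whether the replicate numbers pair the samples is not known. The deviations of same-numbered control and TL3d libraries correlated at 0.526, -0.136 and 0.368, and different numbers at -0.572 to 0.257. With 3 libraries per group, these values do not settle it. With the replicate number as a block, 2719 genes passed, 2260 of them among the 2608, and the pigment cell median was -0.24 in place of -0.80.

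FKBP5 and PDK4, not called, ranged from -2.9 to 1.93 and from -2.45 to 2.72 when 1 library was left out, reversed to 1.93 and 2.72 without control replicate 3, and to 1.8 and 3.06 without both apart libraries. With the 6 libraries alone, medians were 0.99 for mast cell, 0.07 for motile cilium and -0.33 for pigment cell genes. Without both apart libraries they were 5.5 for neutrophil, -1.31 for T cell, 0.9 for glycolysis, 0.71 for cholesterol synthesis, 1.06 for ATF4 targets, 0.21 for mucins, -0.41 for motile cilium, -3.68 for skeletal muscle, -0.66 for adipocyte, 0.88 for lacrimal gland, -0.24 for glucocorticoid-induced and -0.53 for clock genes. Leaving out 1 library, medians ranged from 2.56 to 3.78 for macrophage, 2.89 to 5.07 for neutrophil, -1.03 to -0.06 for T cell, 0.14 to 1.57 for B and plasma cell, 1.61 to 1.98 for mast cell, -0.98 to 0.08 for complement, 0.48 to 0.76 for basement membrane and hemidesmosome, -0.42 to 0.02 for motile cilium, -1.01 to -0.58 for xenobiotic and retinoid enzymes, -3.4 to 1.85 for skeletal muscle, -0.51 to 0.3 for adipocyte, -0.91 to -0.25 for pigment cell, 0.47 to 1.22 for lacrimal and accessory gland, -0.49 to -0.17 for cornea epithelium, -0.8 to -0.04 for hedgehog pathway, -1.59 to 0.09 for glucocorticoid-induced genes and -0.94 to -0.61 for circadian clock. The other list medians moved by less than 1 SD of the spread between libraries, which was wide: that of elastic fibre genes ran from -1.84 to 0.55, collagen chains from -0.28 to 0.88, lymphatic genes from -0.2 to 0.83 and collagen processing from 0.03 to 1.44. Of the named genes under all alternatives, 4408 values kept their side of the threshold, 1144 lost the call, 78 gained one and 4 reversed. Genes called in neither fit count as kept whatever their direction, and some of them changed sign. Depth limits genes near the floor. In simulated data most 2-fold changes were missed, but only 200 genes were changed there. In the data, 478 higher and 480 lower genes were called with a change under 2-fold. The simulated recovery therefore need not hold for this comparison.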

Other observations

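Set beside the other times of the series, which share the same 3 controls, the lists differed in where TL3d lay. On the scale of mean log2(CPM + 0.5) minus the control mean, mitosis and spindle genes were at -2.07 to -1.69 in the TL3h libraries, 1.38 to 1.39 at TL3d and -0.06 to 0.56 at TL14d, against -0.37 to 0.37 in control. DNA replication genes were at -0.88 to -0.75, 1.05 to 1.44 and 0.27 to 0.46, and crosslink repair genes at -0.89 to -0.86, 0.48 to 0.59 and -0.02 to 0.20. Targets of p53 were at 0.67 to 0.93, 1.14 to 1.5 and 0.26 to 1.19. Neutrophil markers were highest at TL3h, with 3.59 to 4.64, against 2.45 to 3.47 at TL3d and -0.86 to 1.61 at TL14d. Macrophage markers were at 1.54 to 2.21, 2.58 to 2.75 and -0.61 to 1.46. ATF4 targets were at 1.80 to 1.92, 0.67 to 1.27 and -0.07 to 0.39, and interferon-stimulated genes at -0.50 to 0.15, 1.02 to 1.53 and -0.64 to -0.54. Xenobiotic and retinoid enzymes were at -0.54 to -0.01, -1.25 to -0.87 and -0.60 to 0.30. These values are descriptions, and differences between the times were not tested.

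Among firm lower genes outside the lists, picked after their values were seen, SELENBP1, a selenium-binding protein of mature epithelia, was at 163, 106.2 and 88.1 CPM in control and 16, 18.4 and 21.1 CPM at TL3d. CX3CL1, a chemokine tethered to cell surfaces, was at 91.6, 77.5 and 56.7 CPM and 23.7, 23.3 and 25.5 CPM, with a log2 fold change of -1.64 ± 0.26 and q = 0.00993. FBXO32, a ubiquitin ligase that FOXO factors induce, was at 152.7, 163 and 140.4 CPM and 43.6, 51.2 and 51.8 CPM, with -1.64 ± 0.25 and q = 0.0095.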
